A study of Mus musculus with 6 samples.

Results

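The mRNA of 10 integrin subunit genes of leukocytes, among them Itga2, which encodes CD49b, was measured in C1498 cells recovered from bone marrow after cytarabine or in controls. The genes were chosen by symbol as a family, with differences between cytarabine and control in these same libraries already known, so the differences of the 10 genes are given as a description, with no p-value. They are 10 of the 23284 genes listed, and 9 of them passed the filter for the gene-wise test, an average over the 6 libraries of 1 FPKM or more (reads scaled to the length of the exons and to the depth of the library). Itgb3 did not pass.

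C1498 is a mouse acute myeloid leukemia (AML) line. The cells carried GFP from a retroviral vector, were grown from 1 selected clone and were injected intravenously into C57BL/6 J mice, which the methods of the study describe as female and 8 to 10 weeks old unless stated otherwise. At day 21, GFP+ CD49b+ cells were sorted from femur, tibia and pelvis of 3 mice that had received cytarabine and 3 control mice, labelled both PBS and nontreat. The imaging mice of the study received 20 μg cytarabine in PBS into the peritoneum on days 19 and 20, and the schedule of the mice used for RNA was not stated separately. All 6 mice carried the same leukemia, and 1 library was made per mouse, called cytarabine 1, 2 and 3 and control 1, 2 and 3 below. The sequencing depth inferred from the values was between 11480000 and 18670000 reads per library, and each of the 10 genes was above the level of 3 reads in every library.

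Integrins are cell-surface receptors made of 1 alpha and 1 beta chain. They bind matrix proteins or counter-receptors on other cells, and signals inside the cell switch them between a resting and a binding form through talin and kindlin at the beta tail. The beta 1 chain (Itgb1) pairs with many alpha chains, among them alpha 2 (CD49b, a collagen receptor of NK cells and platelets), alpha 4 (with beta 1 the receptor VLA-4 for VCAM-1) and alpha 6 (a laminin receptor). The beta 2 chain (Itgb2) is restricted to leukocytes and forms LFA-1 with alpha L (Itgal), which binds ICAM proteins. The beta 7 chain (Itgb7) pairs with alpha 4 for gut homing and with alpha E (Itgae, CD103), which binds E-cadherin, while alpha V (Itgav) pairs with beta 3 (Itgb3) and other beta chains to bind vitronectin and fibronectin. In bone marrow, VLA-4 and LFA-1 are known for holding leukocytes and leukemia cells to stroma.

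Surface CD49b was part of the sorting gate, so the values of Itga2 describe cells that had already been chosen for the protein it encodes. The labelled cell type was compared with marker lists. Cd3g, a T cell receptor chain, was at 449 to 652 FPKM. The 9 measured T cell markers summed to 626 to 826 FPKM with cytarabine and 721 to 871 FPKM in controls. Of these 9, 5 were under 1 FPKM in all libraries. The 11 measured myeloid leukemia markers summed to between 25.0 and 224 FPKM, with Elane as the highest on average and 1 marker under 1 FPKM in all libraries. The libraries also held transcripts of other tissues in amounts that differed between libraries. Zg16, a colon goblet cell gene, exceeded 1000 FPKM in 3 libraries, namely cytarabine 2, cytarabine 3 and control 1, and was at 137 FPKM or less in the other 3 libraries. On each side of this limit Zg16 was higher in cytarabine than in control libraries, so a split there does not balance it between the groups. The heart gene Nppa was at 1480 FPKM in control 1 and 1.27 FPKM in cytarabine 2. The 11 measured neutrophil markers, none of which was at 0 in all libraries, summed to 254 to 1488 FPKM with cytarabine and 1500 to 2117 FPKM in controls. The sums of the NK cell markers and of the megakaryocyte and platelet markers were higher with cytarabine without overlap, with values given beside Itga2. So was the erythroid sum, led by Car1, which is also on the colon list, at 138 to 192 FPKM with cytarabine and 26.4 to 105 FPKM in controls. No single erythroid marker was higher without overlap. The sums of the other lists overlapped between the groups, with Cd3g, C1qa, Cd79a and Pecam1 as the highest of the T cell, macrophage, B cell and endothelial markers. In sorted bulk cells, fewer cells of a type and less RNA per cell cannot be told apart.

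The promoters of 3 of the genes are shown because they cover the sorted antigen, its beta partner and the integrin gene with the highest mean level. RefSeq (GRCm38.p6) gave a promoter for 5 of the 10 genes, Itga2, Itga4, Itgav, Itgb1 and Itgb7. Each sequence is the 250 bases before the start of transcription on the strand of the gene, with CG dinucleotides in capitals. The Itga2 window is at chr13:114932101-114932350 on the minus strand, that of Itgb1 at chr8:128685404-128685653 on the plus strand and that of Itgb7 at chr15:102231936-102232185 on the minus strand.
Itga2: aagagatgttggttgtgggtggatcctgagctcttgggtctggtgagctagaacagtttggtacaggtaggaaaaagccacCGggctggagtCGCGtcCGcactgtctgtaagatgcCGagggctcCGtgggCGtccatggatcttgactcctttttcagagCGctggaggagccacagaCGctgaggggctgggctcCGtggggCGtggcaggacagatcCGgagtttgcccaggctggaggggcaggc
Itgb1: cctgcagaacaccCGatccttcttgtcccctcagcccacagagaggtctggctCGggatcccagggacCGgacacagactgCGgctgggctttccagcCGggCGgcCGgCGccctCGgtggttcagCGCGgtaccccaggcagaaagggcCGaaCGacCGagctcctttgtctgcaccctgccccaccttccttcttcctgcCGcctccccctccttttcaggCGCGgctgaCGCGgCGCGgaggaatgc
Itgb7: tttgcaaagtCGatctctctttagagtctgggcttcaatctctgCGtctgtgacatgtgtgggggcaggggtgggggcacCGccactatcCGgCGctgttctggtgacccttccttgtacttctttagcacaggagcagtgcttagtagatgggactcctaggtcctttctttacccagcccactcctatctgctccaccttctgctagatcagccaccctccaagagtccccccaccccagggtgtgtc
Itgb1 held 21 CG dinucleotides at 68.0% G and C, Itga2 held 12 at 60.8%, and Itgb7 held 5 at 56.0%. The medians over 32851 promoter windows were 6 CG dinucleotides and 52.4%. The CArG box, the element that SRF binds, had no match on either strand in any of the 5 windows, and 1.5% of all windows held one. A RUNX core (TGTGGT, both strands) was found in Itga4 and in 14.0% of all windows, and a GC box (GGGCGG, both strands) in Itga4 and Itgb1 and in 32.7% of all windows. The matches in Itga4 did not overlap. A match describes the letters and is not evidence of binding.

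Itgb7, Itgb2 and Itgb1 were the most abundant of the 10 mRNAs. On the FPKM scale, which is per length, the mean over the 6 libraries was 102 FPKM for Itgb7, 90.8 FPKM for Itgb2 and 86.1 FPKM for Itgb1, and these 3 levels overlapped between libraries. Itgal followed at 29.3 FPKM, below all 3 beta chains and above the rest in every library. Itgav at 11.1, Itga2 at 10.1, Itgae at 8.52 and Itga6 at 6.62 FPKM overlapped with their neighbours in this order. Itga4 was at 1.73 FPKM and Itgb3 at 0.811 FPKM, and Itga4 was above Itgb3 in each of the 6 libraries although their ranges overlapped. Between libraries, Itga4 and Itgav varied least, with coefficients of variation of 10.9% and 12.2%, and Itgb3 and Itga6 most, with 72.9% and 51.7%. The beta chains of the set summed to 3.80 to 4.40 times the alpha chains of the set in each library.

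**Figure D1:**
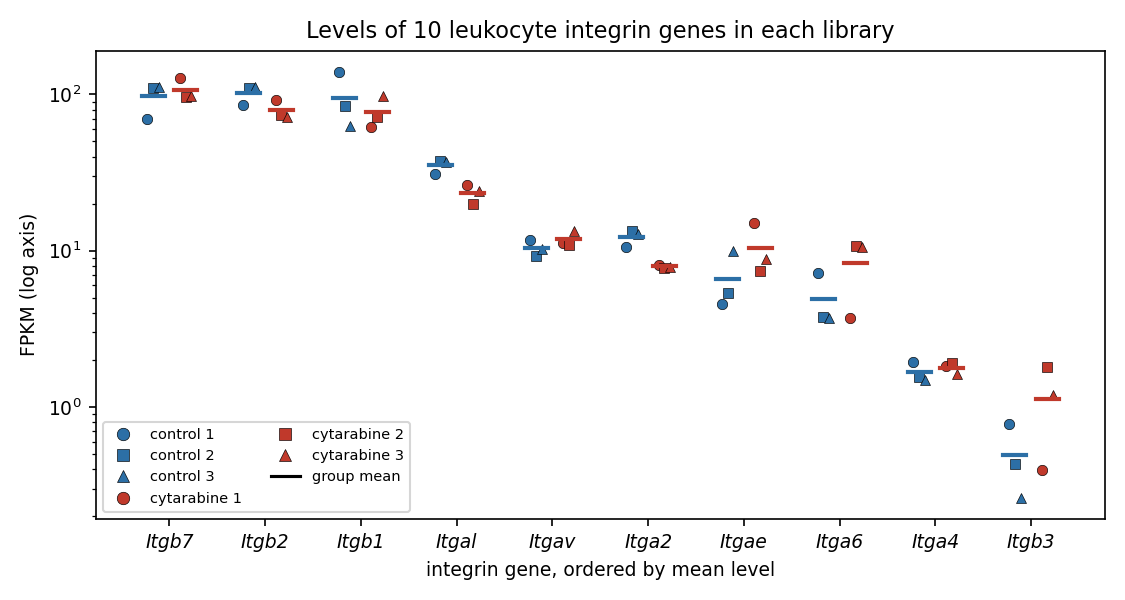
FPKM of the 10 integrin genes in each of the 6 libraries on a log axis, ordered by mean level, with control libraries in blue, cytarabine libraries in red, marker shape for the library number and lines for group means (n = 3 mice each). Itga2 and Itgal are the genes whose red and blue points do not overlap, with Itga2 between 7.79 and 8.11 FPKM with cytarabine and between 10.6 and 13.3 FPKM in controls.

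Itga2 and Itgal were the 2 of the 9 genes past the filter whose groups did not overlap, both lower with cytarabine, where 12.9% of all 11703 genes tested were lower without overlap and 10.9% higher (23.8% in either direction). No gene of the whole table had an adjusted p under 0.05 (limma with Benjamini-Hochberg adjustment, 0% of genes, and 2038 genes or 17.4% at an unadjusted p under 0.05). The 10 genes were picked with this contrast in view, so nothing is read from their counts. Without cytarabine 1, 4 of the 9 had no overlap, with Itgb2 lower and Itga6 higher as the additions, where 55.8% of all genes had none. Without control 1 it was 5 of the 9, with Itgb2 lower and Itga4 and Itgav higher as the additions, where the share of all genes was 41.9%. The median log2 fold change of the 9 was 0.07, and that of all genes tested was close to zero.

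Itga2, the alpha chain of the sorted antigen, lies on chromosome 13 from 114833081 to 114932100 of GRCm38 on the minus strand. It was at 8.11, 7.79 and 7.88 FPKM in cytarabine 1 to 3, compared with 10.6, 13.3 and 12.8 FPKM in control 1 to 3. All cytarabine libraries were lower than all controls, and the cytarabine libraries lay closer together than the controls. The means were 7.93 ± 0.17 (SD, n = 3) and 12.3 ± 1.45 FPKM (SD, n = 3), a log2 fold change of -0.57 on the log2(FPKM + 1) scale with a standard error of 0.10. The difference was -0.63 between cytarabine 1 and control 2 and 3, which held little colon transcript. It was -0.40 between cytarabine 2 and 3 and control 1, which held much. As the groups did not overlap, the sign was fixed in advance for any such split. With a colon transcript score (the mean log2(FPKM + 1) of the colon markers) as covariate the log2 fold change was -0.43. The neutrophil sum given above was, like Itga2, lower with cytarabine without overlap, with the alarmin gene S100a8 as the highest marker. The sums nearly met, at 1488 FPKM in cytarabine 1 and 1500 FPKM in control 1. S100a8 itself overlapped, at 638 FPKM in cytarabine 1 and 590 FPKM in control 1. The sums of the NK cell and platelet markers, which belong to normal cells that carry CD49b, stood the other way round. The 10 NK cell markers summed to 178 to 219 FPKM with cytarabine and 126 to 147 FPKM in controls, with Klrd1 highest. Of these, 4 were under 1 FPKM in all libraries, and 7 were higher without overlap, where 10.9% of all genes tested were. Those 4 did not pass the filter for the test, so this share does not cover all of the 7. The 10 megakaryocyte and platelet markers summed to 6.31 to 8.74 and 4.57 to 5.60 FPKM, with Treml1 listed at 0 throughout. Here 8 were under 1 FPKM in all libraries, and 3 were higher without overlap. The share higher without overlap was 10.9% of all genes tested. Of all genes under the filter with a value above 0, 8.12% had no overlap in either direction. Pf4, the highest, was at 2.40, 6.37 and 4.32 FPKM with cytarabine and 2.21, 3.39 and 1.59 FPKM in controls, with overlap. The part of neutrophils, NK cells and platelets in the level of Itga2 was not tested.

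The neighbouring gene Itga1 encodes the other collagen-binding alpha chain of this locus, on the same strand, and its 3′ end lies 21.0 kilobases upstream of the start of Itga2. It was at 2.65, 4.93 and 5.28 FPKM with cytarabine, compared with 5.10, 3.99 and 3.23 FPKM in controls, and the groups overlapped (log2 fold change 0.03 ± 0.26 SE, adjusted p = 0.962, limma). Itga1 was higher in each library with much colon transcript, at 4.93 to 5.28 FPKM, than in those with little, at 2.65 to 3.99 FPKM. Its level was 25.2% to 67.0% of that of Itga2. The levels of Itga2 across the 6 libraries were most like those of Aspscr1, with a Pearson r of 0.996 on the log2(FPKM + 1) scale, and other similar genes were Cog6 (0.993), Nr2c2 (0.993) and Kdm4a (0.989). Such likeness is common with 6 libraries, and 99 of the 8794 genes compared had an r above 0.95 with Itga2.

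Itgal and Itgb2 encode the alpha and beta chains of LFA-1. Itgal, on chromosome 7 from 127296260 to 127335138, was at 26.4, 19.8 and 24.0 FPKM in cytarabine 1 to 3, compared with 31.1, 37.7 and 37.0 FPKM in control 1 to 3. The groups did not overlap, and the log2 fold change was -0.58 with a standard error of 0.13. It was -0.49 in the libraries with little colon transcript, -0.50 in those with much and -0.39 with a colon transcript score as covariate. Itgb2, on chromosome 10 from 77530252 to 77565708, was at 92.2, 73.5 and 71.9 FPKM with cytarabine, compared with 85.8, 110 and 112 FPKM in controls. Here cytarabine 1 was above control 1, so the groups overlapped, and the log2 fold change was -0.37 with a standard error of 0.15. Itgb2 was lower in all 3 libraries with much colon transcript than in the other 3, and with a colon transcript score as covariate its log2 fold change was -0.10, while within the libraries of little and of much it was -0.26 and -0.24. Neutrophils carry both chains, and 7 of the 11 measured neutrophil markers were lower without overlap with cytarabine, where 12.9% of all genes were. Their part in the lower LFA-1 values was not tested. The gene with levels most like those of Itgb2 was Ddx54 (r = 0.9996 over 6 libraries).

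Itgam, the alpha chain of the complement receptor of neutrophils and macrophages (CD11b), also pairs with Itgb2. It was at 2.30, 1.22 and 0.933 FPKM with cytarabine, compared with 3.17, 4.76 and 3.94 FPKM in controls, without overlap (log2 fold change -1.02 ± 0.26 SE, unadjusted p = 0.0076, adjusted p = 0.173, limma). Itgam is also one of the myeloid leukemia markers above, and a transcript model on the same strand shares 3450 exon bases with it. Itgad, a further partner of Itgb2, did not pass the filter. It was at 1.56, 0.546 and 0.635 FPKM with cytarabine, compared with 0.223, 0.449 and 0.529 FPKM in controls, and thus higher without overlap. Itgax (CD11c) was between 0.220 and 1.83 FPKM with overlapping groups. The 4 alpha chains together were 30.1% to 36.6% of Itgb2 with cytarabine and 37.4% to 40.8% in controls, and Itgal alone was 26.9% to 33.3% and 33.2% to 36.2%, with overlap.

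Itgb7 and Itgae form the E-cadherin receptor of lymphocytes in epithelia. Itgb7, on chromosome 15 from 102215995 to 102231944, was at 128, 96.2 and 97.1 FPKM in cytarabine 1 to 3, compared with 69.9, 109 and 112 FPKM in control 1 to 3. Control 1 was the lowest and cytarabine 1 the highest library, and the groups overlapped (log2 fold change 0.16, standard error 0.22). Itgb7 was higher in each of the 3 libraries with little colon transcript than in any of the other 3. Within these sides the log2 difference was 0.21 with little and 0.46 with much colon transcript, and with a colon transcript score as covariate the log2 fold change was 0.57 (standard error 0.07). It was 0.03 without cytarabine 1 and -0.06 without control 1. Itgae, on chromosome 11 from 73090583 to 73147446, was at 14.9, 7.42 and 8.84 FPKM with cytarabine, compared with 4.54, 5.37 and 9.99 FPKM in controls. Control 3 lay above 2 of the cytarabine libraries, and the log2 fold change was 0.59 with a standard error of 0.35. It was 0.93 and 0.72 within the libraries with little and with much colon transcript, and 1.11 with the score as covariate. Without control 3 the groups of Itgae did not overlap. Itgae was 7.71% to 11.7% of Itgb7 with cytarabine and 4.91% to 8.94% in controls. The most similar genes were Nt5c3l for Itgb7 (r = 0.998 over 6 libraries) and Tnfsf11 for Itgae (r = 0.992).

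Itga4, the alpha chain of VLA-4 and of the gut homing receptor with Itgb7, was low. It lies on chromosome 2 from 79255426 to 79333123 and was at 1.84, 1.90 and 1.63 FPKM with cytarabine, compared with 1.94, 1.56 and 1.50 FPKM in controls. The groups overlapped, and the log2 fold change was 0.07 with a standard error of 0.18. The sign turned with quantile normalization, where it was -0.29, and with a colon transcript score as covariate, where it was -0.01. Within the libraries of little and of much colon transcript it was 0.17 and -0.09. Itga4 made up 1.40% to 2.98% of the level of Itgb1 and 1.34% to 2.77% of that of Itgb7. It shares 1124 exon bases with Cerkl on the opposite strand, and the strand setting of the counting was not given in the sources used here. The gene most like it was 2810004N23Rik (r = 0.973 over 6 libraries).

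**Figure D2:**
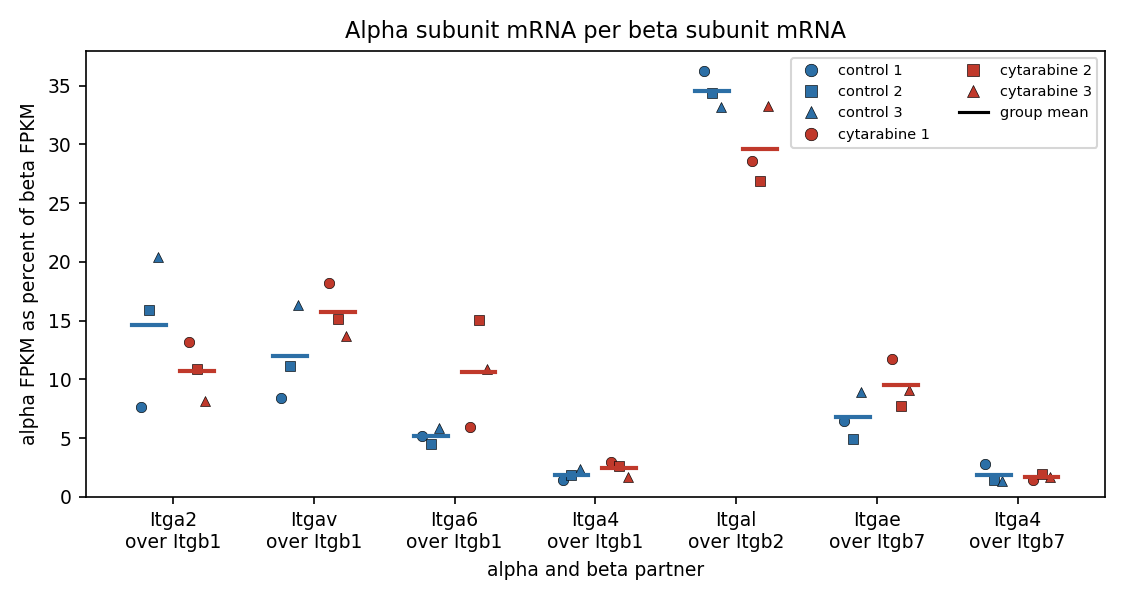
FPKM of an alpha chain as a percentage of the FPKM of a beta partner in each library, with controls in blue, cytarabine in red, marker shape for the library number and lines for group means (n = 3 mice each). Itgal is the alpha chain nearest to its beta chain, at 26.9% to 36.2% of Itgb2, and Itga4 stays below 3% of both its partners.

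Itgb1, the shared beta 1 chain, lies on chromosome 8 from 128685654 to 128733200. It was at 61.8, 71.9 and 97.1 FPKM in cytarabine 1 to 3, compared with 139, 83.9 and 62.9 FPKM in control 1 to 3. Control 1 was highest, the groups overlapped, and the log2 fold change was -0.25 with a standard error of 0.32. With a colon transcript score as covariate it was -0.80, within the libraries of little and of much colon transcript -0.23 and -0.73, and without control 1 0.06, with the sign turned. The most similar gene was Casq2, a calcium-binding protein gene of heart muscle (r = 0.988 over 6 libraries), which was at 29.9 FPKM in control 1 and at 0.203 to 7.05 FPKM in the others. The 8 heart muscle markers summed to 2521 FPKM in control 1 and to 7.46 FPKM in cytarabine 1, the library with the lowest Itgb1. Across groups, these sums were 7.46 to 686 FPKM with cytarabine and 52.6 to 2521 FPKM in controls, with no marker at 0 throughout. Beta 1 is made by most tissues, and the part of heart and stroma RNA in its level was not tested. Itga2 was 8.12% to 13.1% of Itgb1 with cytarabine and 7.64% to 20.4% in controls.

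Itga6 and Itgb3 were higher in all 3 libraries with much colon transcript than in the other 3. Itga6, on chromosome 2 from 71745616 to 71858416, was at 3.69, 10.8 and 10.6 FPKM with cytarabine, compared with 7.24, 3.76 and 3.70 FPKM in controls. Cytarabine 1 was level with controls 2 and 3, and the log2 fold change was 0.60 with a standard error of 0.43. With a colon transcript score as covariate it was -0.17, and the difference was -0.01 among the libraries with little of it and 0.50 among those with much. The 9 measured colon epithelium markers summed to 234, 3050 and 3440 FPKM in cytarabine 1 to 3, compared with 1587, 20.9 and 19.2 FPKM in control 1 to 3, with none at 0 throughout. Alpha 6 is a chain of the laminin receptors of epithelia as well as of leukocytes, and the part of colon RNA in its level was not tested. The gene most like Itga6 was Acss2 (r = 0.997 over 6 libraries, with 377 genes above 0.95).

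Itgb3, on chromosome 11 from 104608000 to 104670476, was at 0.396, 1.80 and 1.19 FPKM in cytarabine 1 to 3, compared with 0.778, 0.433 and 0.264 FPKM in control 1 to 3. The groups overlapped, and the means were 1.13 ± 0.71 (SD, n = 3) with cytarabine and 0.492 ± 0.26 FPKM (SD, n = 3) in controls. Its most similar gene was Churc1 (r = 0.993 over 6 libraries). Itgav, on chromosome 2 from 83724397 to 83806916, was far higher than Itgb3. It was at 11.2, 10.9 and 13.3 FPKM with cytarabine, compared with 11.7, 9.31 and 10.3 FPKM in controls. Control 1 lay above 2 cytarabine libraries, so the groups overlapped, and the log2 fold change was 0.17 with a standard error of 0.12. It was 0.03 with the colon score as covariate, and 0.18 and 0.04 within the libraries of little and of much colon transcript. Without control 1 every cytarabine library was above both remaining controls. The gene most like Itgav was Zmym2 (r = 0.974 over 6 libraries).

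**Figure D3:**
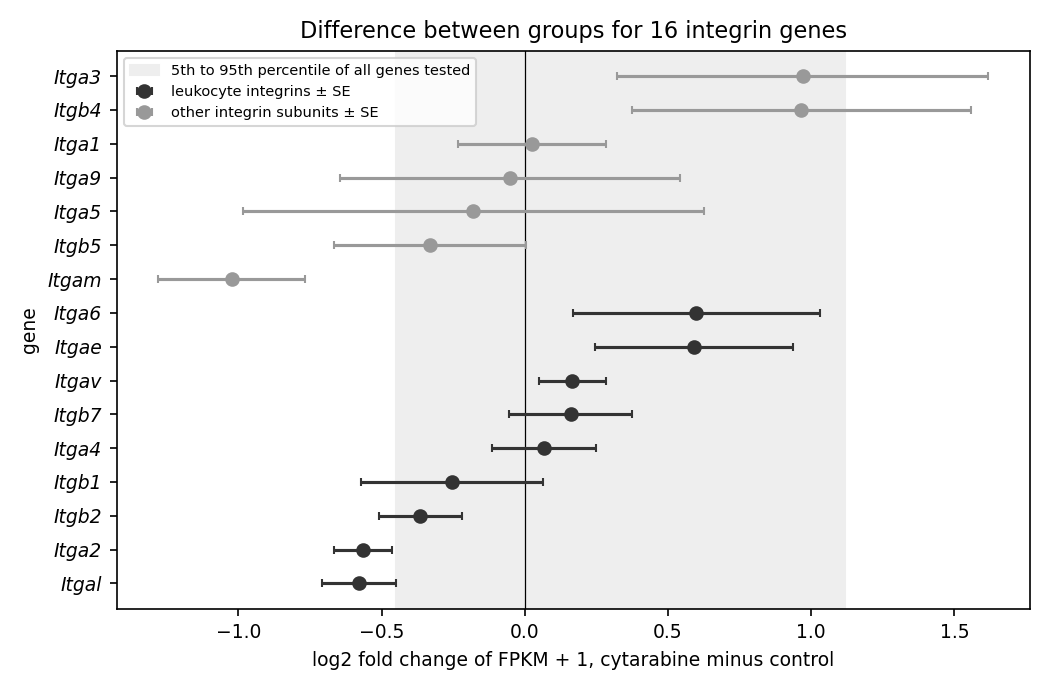
Log2 fold change of FPKM + 1, cytarabine minus control, with standard errors for the 9 leukocyte integrins that passed the filter (black) and for 7 other integrin subunits (grey), with the range from the 5th to the 95th percentile of all 11703 genes tested shaded. Itgal, Itga2 and Itgam lie to the left of the shaded range, which runs from -0.45 to 1.12.

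Of the 16 other integrin subunits, 7 had a mean of at least 1 FPKM. None had an adjusted p under 0.05, and 1 of the 7, Itgam, was lower at an unadjusted p under 0.05, where 9.81% of all genes were lower. The count was 3 of 7 without cytarabine 1, where 34.8% of all genes met the threshold in either direction. The median log2 fold change of the 7 was -0.05. Itga3, an alpha chain of laminin receptors, was at 0.229, 2.98 and 4.40 FPKM with cytarabine, compared with 1.49, 0.208 and 0.167 FPKM in controls (log2 fold change 0.97 ± 0.65 SE, adjusted p = 0.429, limma). Itgb4, the beta chain of epithelial hemidesmosomes, followed the same libraries, at 0.181, 2.30 and 3.02 FPKM against 1.07 FPKM, listed at 0 and 0.0149 FPKM (log2 fold change 0.97 ± 0.59 SE, adjusted p = 0.401, limma). Both were highest in the 3 libraries with much colon transcript. Itga5, the fibronectin receptor chain, and Itga9 were highest in control 1, at 8.47 and 2.85 FPKM, and lowest in cytarabine 1 or control 3, at 0.499 and 0.0920 FPKM. They too were higher in the 3 libraries with much colon transcript. Itga5 was at 2.50 FPKM or more there and at 2.49 FPKM or less in the others, and Itga9 at 1.35 FPKM or more and 0.889 FPKM or less. Itgb5, a beta partner of Itgav, was between 4.10 and 11.7 FPKM and also highest in control 1. These 3 had adjusted p-values of 0.910, 0.966 and 0.583 (limma). The fibroblast and stroma markers summed to 36.7 to 322 FPKM with cytarabine and 59.0 to 650 FPKM in controls, and were highest in control 1 too. The smooth muscle markers summed to 123 to 1181 FPKM and 24.7 to 962 FPKM, without any of the 8 markers of either list at 0 in all libraries. The part of these tissues was not tested.

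Among the 9 subunits under the filter, Itga2b, the platelet fibrinogen receptor chain, was at 0.518, 0.358 and 0.346 FPKM with cytarabine, compared with 0.238, 0.249 and 0.161 FPKM in controls, without overlap. Itga10 was lower without overlap, at 0.479 to 0.566 FPKM with cytarabine and 0.715 to 0.998 FPKM in controls. These 2 and Itgad were the 3 of the 9 whose groups did not overlap, where 8.12% of all genes under the filter with a value above 0 had none, and they were named after their values were seen. The remaining subunits under the filter, Itga7, Itga8, Itga11, Itgax, Itgb6 and Itgb8, had overlapping groups.

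**Figure D4:**
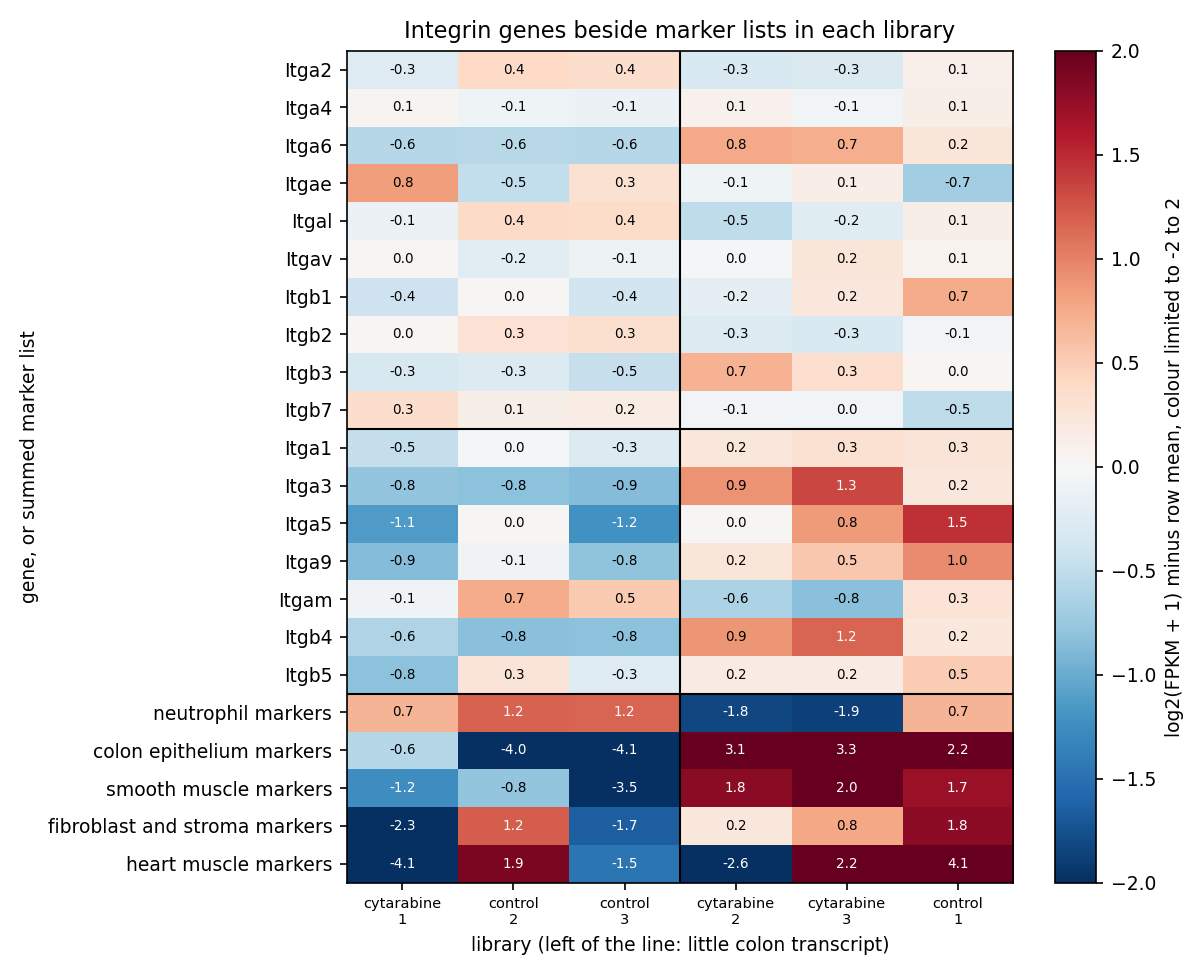
Log2(FPKM + 1) minus the mean of its row for the 10 leukocyte integrins (top block), 7 other integrin subunits (middle) and the summed FPKM of 5 marker lists (bottom), with the 3 libraries of little colon transcript left of the vertical line. Itga6, Itgb3, Itga1, Itga3, Itga9 and Itgb4 are above their row mean to the right of the line and below it to the left. Itga2 and Itgal are low in cytarabine libraries on both sides of the line.

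The proteins that couple integrins to the cytoskeleton were compared next. Of 42 genes, 40 were tested, none had an adjusted p under 0.05, and 1 was higher and 4 were lower at an unadjusted p under 0.05, where 7.60% and 9.81% of all genes were. The 2 to 11 genes found when 1 library was left out included 11 without cytarabine 1, where 34.8% of all genes met the threshold. They were 3 without cytarabine 2, where 10.9% of all genes did. They were 2 without cytarabine 3, control 2 or control 3, where 10.7%, 10.8% and 10.1% of all genes did. The median log2 fold change of the 40 was -0.001. The higher gene was Bcar1, the adhesion scaffold p130Cas, at 10.8, 8.99 and 8.78 FPKM with cytarabine, compared with 6.94, 7.84 and 5.26 FPKM in controls (log2 fold change 0.46 ± 0.16 SE, adjusted p = 0.233, limma). Slc3a2, the CD98 heavy chain that binds beta tails, was at 92.3, 96.1 and 79.6 FPKM against 118, 115 and 132 FPKM (log2 fold change -0.45 ± 0.09 SE, adjusted p = 0.151, limma). Rasgrp1, an activator of Ras and Rap, had a log2 fold change of -0.38 ± 0.12 (SE, adjusted p = 0.222, limma). Tln2, the less abundant talin, had -0.44 ± 0.14 (SE, adjusted p = 0.223, limma). In each of these named genes the groups did not overlap. The activators found in leukocytes, Tln1 at 71.0 to 92.5 FPKM and Fermt3 (kindlin-3) at 50.7 to 73.6 FPKM, had overlapping groups. They were picked for their role after their values were seen.

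Of 33 ligand genes, 21 were tested, none had an adjusted p under 0.05, and 1 was higher and 1 lower at an unadjusted p under 0.05, where 7.60% and 9.81% of all genes were. The count of 2 became 5 without cytarabine 1 or control 3, where 34.8% and 10.1% of all genes met the threshold. The median log2 fold change of the 21 was -0.35. Both genes encode ligands of LFA-1. Icam1 was at 36.7, 38.6 and 27.6 FPKM with cytarabine, compared with 21.2, 21.3 and 24.7 FPKM in controls (log2 fold change 0.58 ± 0.14 SE, adjusted p = 0.167, limma). Icam2 was at 20.7, 19.1 and 17.4 FPKM against 23.7, 23.8 and 26.2 FPKM (log2 fold change -0.35 ± 0.09 SE, adjusted p = 0.167, limma). The groups of both did not overlap, in opposite directions. Cdh1 (E-cadherin), the ligand of the receptor of Itgae and Itgb7, was above 21 FPKM in the 3 libraries with much colon transcript and at 3.02 FPKM or less in the others.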

How the data were processed

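The members and the gene lists were chosen with earlier results of these data known. Single-end reads of 75 bases were mapped by the authors to mm10 with TopHat 2.0.13, Bowtie2 2.2.3 and SAMtools 0.1.19, and they deposited the FPKM that Cufflinks 2.2.1 gave for each of 23284 genes, 1 library per mouse. Length and library size were thus already divided out. The annotation and the strand setting are not given in the sources used here. Depth was read from the spacing of small FPKM values in genes with 1 transcript (GENCODE M21), assuming fragments of 200 bases.

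Log2(FPKM + 1) of the 11703 genes that averaged 1 FPKM or more was fitted with limma 3.58.1 in R 4.3.3 (trended eBayes, two-sided tests, p-values adjusted by Benjamini-Hochberg), after a test on simulated data. Fold changes on this scale understate those of low genes. Groups and replicate numbers came from the labels. The labels do not name the mice. That each library is a separate mouse was read from the methods of the study, which give 3 mice per group, so same-numbered libraries are different mice. The alternatives were another pseudocount, filter, scaling or eBayes setting, the replicate block, a colon score (mean log2(FPKM + 1) of the colon markers) as covariate, and leaving out each library. Differences within libraries of little and of much colon transcript (Zg16 of at least 1000 FPKM) were added after the data were seen.

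Named are all 10 genes, every other integrin subunit with a mean of at least 1 FPKM, up to 4 genes per direction of each other integrin list with the smallest unadjusted p under 0.05, the highest gene of each marker list, and the genes of highest Pearson correlation (5 for Itga2, 1 for the others) among tested genes averaging 5 FPKM or more. Some genes that this rule names are not reported here. Genes outside this rule are said to be so or give the level of a tissue. Positions are from GENCODE on GRCm38, the assembly of mm10, and promoters from RefSeq. Python 3.11.15 with matplotlib 3.10.9 drew the figures.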

Additional observations from a re-analysis of the deposited data

How the results depend on the processing

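No gene had an adjusted p under 0.05 from limma (2038 had an unadjusted p under 0.05), 1 had with a pseudocount of 0.1 and 2 without the trend in eBayes, and 0 to 5 had when 1 library was left out. At an unadjusted p under 0.05, 890 genes were higher and 1148 lower. These became 479 and 515 with the replicate block, 987 and 867 (15.8% of all genes) with the colon score as covariate, and 594 to 2026 and 585 to 2049 when 1 library was left out. Of the 9 leukocyte integrins, those without overlap numbered 2, where 23.8% of all genes had none. They numbered 2 to 5 when 1 library was left out, where 28.9% to 55.8% of all genes had none. Leaving out a library cannot create an overlap, so this count could not fall. Of the 7 other subunits 1 met the threshold, 4 with the colon score and 1 to 3 when 1 library was left out. The count was 0 of 1 under a filter at a mean of 5 FPKM and 3 of 16 without a filter. Of the 40 genes of the adhesion complex 5 met it, 2 with the replicate block, 9 with the colon score and 2 to 11 when 1 library was left out. Under a filter at a mean of 5 FPKM it was 3 of 30. Of the 21 ligands 2 met it, 12 with the colon score and 2 to 5 when 1 library was left out. Without a filter it was 4 of 30. Of all genes tested 17.4% met it, 20.1% under a filter at a mean of 5 FPKM and 12.9% without a filter. The share of all genes was 8.49% with the replicate block, 15.8% with the colon score and 10.1% to 34.8% when 1 library was left out. A higher filter tests fewer genes, and no filter more. For the other settings the cause was not tested. Itga2 and Itgal were lower with cytarabine under every alternative run, from -0.66 to -0.40 and from -0.67 to -0.39 (log2). As their groups did not overlap, this sign was fixed when 1 library was left out, within the colon split and with another pseudocount. Another filter, the eBayes setting and the replicate block could not turn it either. Only another scaling or the colon score could have. Of the 143 values of the 9 genes under the alternatives, 132 stayed within 1 SD of the main value. Part of this count was fixed in advance. Another filter, the eBayes setting and the replicate block cannot change a log2 fold change in this balanced design. Same-numbered libraries did not deviate together (correlations of deviations -0.709, -0.247 and -0.594). The deviations include the transcripts of other tissues that differed by library, so they cannot show whether mice were handled in pairs. With 11480000 to 18670000 inferred reads, low genes such as Itgb3 rest on few reads.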

Other observations

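Other genes with integrin-like or integrin-binding products were listed and belong to none of the lists above. They were picked after their values were seen. Itgb2l, a gene related to Itgb2 that is known from neutrophils, was at 1.07, 0.480 and 0.340 FPKM in cytarabine 1 to 3, compared with 1.62, 2.50 and 2.55 FPKM in control 1 to 3, without overlap (log2 fold change -0.996 ± 0.28 SE, adjusted p = 0.192, limma). Itgb1bp2 (melusin), a muscle protein that binds the beta 1 tail, was at 16.2 FPKM in control 1 and between 0.339 and 4.05 FPKM in the other libraries (adjusted p = 0.446 from limma). Itgbl1, an integrin beta-like gene, was also highest in control 1, at 1.92 FPKM, and lowest in cytarabine 1, at 0.0354 FPKM.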
